A study of Mus musculus with 12 samples.

Results

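The 35 genes described here encode the enzymes that build cholesterol, the proteins that sense it and the carriers that take it up, move it, export it or store it. They were chosen by name, and all 35 symbols were found among the 24421 gene symbols counted in each library. RNA was sequenced from Min6, an insulin-secreting mouse line established from a pancreatic beta-cell tumour. A hairpin delivered by adenovirus targeted Il22ra1, which encodes a chain of the interleukin-22 receptor, in 6 libraries (sh-Il22ra1), and a control adenovirus was used in the other 6 (sh-ctrl). Infection lasted 48 h in both groups, and both received 0.3 mM palmitate (PA), a saturated fatty acid, for 24 h. The labels give the genotype of both groups as WT. All cells were thus 1 line under viral infection and palmitate, and cells without either are not analysed here. The treatment labels number the hairpin's gene name upward in sh-Il22ra1 replicates 2 to 6, so the groups were taken from the titles. Separate cultures are not stated for the libraries of a group, and every p-value therefore reflects just their own spread, which may be technical.

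Animal cells make cholesterol from acetyl-CoA through mevalonate, farnesyl diphosphate, squalene and lanosterol. When sterols in the endoplasmic reticulum are low, SCAP carries the precursors of the transcription factors SREBP1 and SREBP2 to the Golgi, where the site proteases free them to enter the nucleus. INSIG proteins hold SCAP back when sterols are plentiful, and the liver X receptors, which bind oxidised sterols, switch on export and storage genes. In beta cells, membrane cholesterol affects insulin granules and ion channels, and both excess and shortage of it are known to disturb insulin secretion.

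Reads in genes ranged from 14408576 to 15595603 per library in sh-Il22ra1 and from 13108494 to 15887448 in sh-ctrl. Reads without an alignment took 8.71% to 11.8% of the files in sh-Il22ra1, against 12.8% to 17.3% in sh-ctrl. The targeted gene, Il22ra1, had 1 to 4 reads per library in sh-Il22ra1, against 7 to 20 in sh-ctrl, so the counts of the targeted gene did not overlap. Il22ra1 was thus near the floor in both groups, did not pass the filter on low counts and was not tested. The beta-cell label was borne out by Ins2, with a mean of 42876 CPM in sh-Il22ra1 and 49586 CPM in sh-ctrl, where CPM is reads per 1000000 gene reads after TMM scaling. Of 10 beta-cell markers, all tested, 5 were lower and 1 was higher in sh-Il22ra1, and they summed to 63582 to 72678 CPM in sh-Il22ra1 and 70931 to 107860 CPM in sh-ctrl. Of 15 markers of other islet, pancreatic, connective, endothelial and blood cells, 5 were high enough to test and 4 of these were lower in sh-Il22ra1. The 15 summed to 156 to 171 CPM in sh-Il22ra1 and 267 to 323 CPM in sh-ctrl, most of it Gcg. Ptprc, Adgre1, Cd3e and Cdh5 averaged at most 0.102 CPM in either group and Prss2 was at 0 in every library. Other blood, endothelial and connective markers were detected. Cd68 averaged 6.17 CPM in sh-Il22ra1 and 22.1 CPM in sh-ctrl, Pecam1 3.47 and 2.77 CPM, and Col1a1 0.821 and 2.68 CPM. The part of these differences in the results was not tested, and in bulk RNA fewer cells of a type and less RNA per cell cannot be told apart. On the second principal component (13.7% of variance) sh-ctrl replicates 1 and 4 stood apart at 18.2 and 31.9, against -17.7 to -0.13 for the other sh-ctrl libraries and -9.30 to 6.27 in sh-Il22ra1, and results that rest on them are given without them too.

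The 35 genes did not move as a block. In sh-Il22ra1, 10 were higher, 10 were lower and 15 stayed outside the threshold, a p of 0.05 from the quasi-likelihood test of edgeR after Benjamini-Hochberg adjustment over all tested genes. Every adjusted p given here is from that test, save that ranges over 21 alternatives also take in DESeq2 and limma-voom. Among all 13102 tested genes 51.9% were called, 25.4% higher and 26.5% lower, so the share of cholesterol genes called was near that of the whole transcriptome in both directions. All 35 genes passed the filter on low counts. The median log2 fold change was -0.02 over the 35 genes and -0.00427 over all tested genes, and the median size of the change was 0.20 and 0.26. By more than 0.5 on the log2 scale, 4 genes were higher (Mvd, Idi1, Insig1 and Nr1h3) and 6 were lower (Msmo1, Hmgcs1, Dhcr7, Srebf2, Lrp1 and Soat1), where 7.24% and 13.9% of all tested genes were so. Every sh-Il22ra1 library lay above every sh-ctrl library in 7 of the 35 genes and below in 7, against 13.5% and 14.6% of tested genes.

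**Figure D1:**
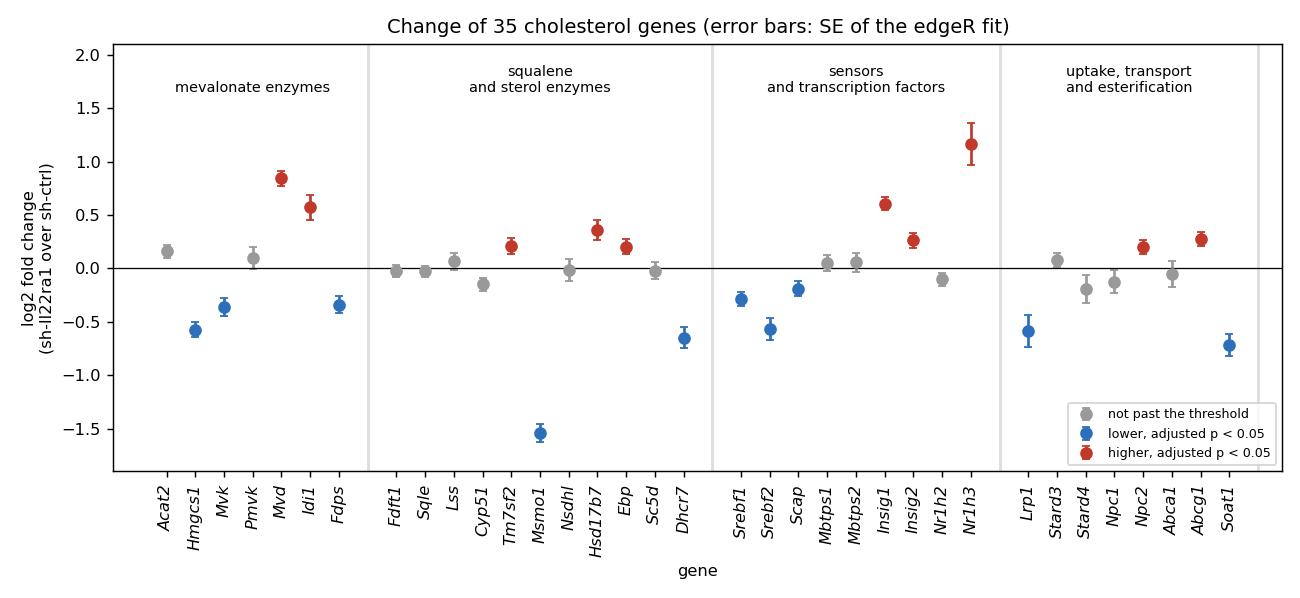
Log2 fold change (sh-Il22ra1 over sh-ctrl) of the 35 genes, grouped by role and in pathway order within the enzymes; bars are the SE of the edgeR fit and colour marks the call. Msmo1 at -1.54 and Nr1h3 at 1.16 are the extremes, and each role holds both higher and lower genes.

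The promoters of 6 of the 10 genes that changed by more than 0.5 on the log2 scale are shown, those of Srebf2, Insig1 and 4 enzymes, because SREBP2 acts through the sterol regulatory element (SRE) together with the factors NF-Y and Sp1. A RefSeq promoter (GRCm38.p6) was matched for 29 of the 35 genes, and the 250 bases before each start were searched on both strands for TCACNCCAC (SRE), CCAAT (NF-Y) and GGGCGG (Sp1). Capitals below mark matches of these letters in the windows of 3 genes that were lower and 3 that were higher. The starts used are those of RefSeq, and the gene positions given elsewhere are from GENCODE M21. In Msmo1, Srebf2, Insig1 and Idi1 the RefSeq start lies inside the gene as GENCODE places it, so part of the window does too. Each window reads 5′ to 3′ toward the RefSeq start of its gene. They lie at chr8:64733579-64733828 for Msmo1 (minus strand), chr13:119690101-119690350 for Hmgcs1 (plus), chr15:82147019-82147268 for Srebf2 (plus), chr8:122443423-122443672 for Mvd (minus), chr5:28071162-28071411 for Insig1 (plus) and chr13:8885356-8885605 for Idi1 (plus).
Msmo1: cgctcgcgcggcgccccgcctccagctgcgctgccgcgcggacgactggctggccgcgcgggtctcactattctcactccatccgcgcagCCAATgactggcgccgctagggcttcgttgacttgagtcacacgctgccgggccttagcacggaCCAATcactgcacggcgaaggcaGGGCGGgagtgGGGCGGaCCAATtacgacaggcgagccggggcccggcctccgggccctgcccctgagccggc
Hmgcs1: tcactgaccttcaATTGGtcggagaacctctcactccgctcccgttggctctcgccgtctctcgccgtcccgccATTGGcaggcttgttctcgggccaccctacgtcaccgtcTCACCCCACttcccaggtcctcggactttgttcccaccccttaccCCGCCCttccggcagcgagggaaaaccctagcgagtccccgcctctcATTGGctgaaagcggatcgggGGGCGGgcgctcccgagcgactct
Srebf2: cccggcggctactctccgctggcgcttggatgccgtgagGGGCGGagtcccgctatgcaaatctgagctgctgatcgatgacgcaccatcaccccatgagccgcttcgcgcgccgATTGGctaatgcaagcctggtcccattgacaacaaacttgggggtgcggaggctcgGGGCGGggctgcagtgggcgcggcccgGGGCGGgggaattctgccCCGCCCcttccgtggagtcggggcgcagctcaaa
Mvd: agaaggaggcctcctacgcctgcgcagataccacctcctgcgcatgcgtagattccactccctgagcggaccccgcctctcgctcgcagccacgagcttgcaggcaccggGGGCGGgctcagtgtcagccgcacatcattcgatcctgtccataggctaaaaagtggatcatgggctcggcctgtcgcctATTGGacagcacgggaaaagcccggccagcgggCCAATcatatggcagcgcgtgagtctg
Insig1: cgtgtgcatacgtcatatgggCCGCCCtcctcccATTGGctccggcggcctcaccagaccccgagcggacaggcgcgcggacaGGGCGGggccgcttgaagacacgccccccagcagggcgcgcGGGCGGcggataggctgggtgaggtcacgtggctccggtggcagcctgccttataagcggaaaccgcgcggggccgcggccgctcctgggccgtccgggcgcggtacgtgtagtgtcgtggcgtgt
Idi1: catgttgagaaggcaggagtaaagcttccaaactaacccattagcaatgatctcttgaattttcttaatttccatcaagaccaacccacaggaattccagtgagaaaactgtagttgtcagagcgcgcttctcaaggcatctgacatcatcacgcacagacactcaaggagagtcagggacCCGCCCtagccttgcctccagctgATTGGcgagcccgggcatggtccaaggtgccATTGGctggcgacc

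Of the 6 windows, only that of Hmgcs1 held the SRE letters, with 128 bases between the match and the RefSeq start, while each of the 6 held at least 1 NF-Y and 1 Sp1 match. Bases further upstream were not searched. Msmo1 and Hmgcs1, both lower, had 3 NF-Y matches each, and Mvd and Idi1, both higher, had 2 each. Across the 29 matched genes the SRE letters occurred in 2, Hmgcs1 and Stard3, against 1.31% of the 10008 tested genes with a window. The shorter core CACNCCAC, which lies within the SRE letters, occurred in 4 (Acat2, Hmgcs1, Insig1 and Stard3), against 6.89%. NF-Y letters occurred in 21 of 29, against 40.8%, and Sp1 letters in 24 of 29, against 65.2%. By call, NF-Y letters were present in 8 of 9 higher, 7 of 9 lower and 6 of 11 genes that did not pass, and Sp1 letters in 8 of 9, 8 of 9 and 8 of 11. These are matches of letters in short windows and were not tested as sites.

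Of the 7 enzymes from acetyl-CoA to farnesyl diphosphate, 2 were higher, 3 were lower and 2 were not past the threshold. That is 28.6% higher and 42.9% lower, against 25.4% and 26.5% of all tested genes. Hmgcs1, the cytosolic HMG-CoA synthase, spanned 17.8 to 21.3 CPM (median 19.6) in sh-Il22ra1, against 27.8 to 31.3 CPM (median 29.3) in sh-ctrl. The groups did not overlap, and Hmgcs1 was 1.49-fold lower (log2 fold change -0.58, SE 0.0689, adjusted p = 1.60e-06). Mvk, mevalonate kinase, averaged 28.4 CPM ± 2.51 in sh-Il22ra1 and 36.4 CPM ± 3.77 in sh-ctrl (SD, n = 6 each), a lower level (-0.36, SE 0.0805, adjusted p = 0.00106) with a slight overlap. Further down the same chain, Mvd, mevalonate diphosphate decarboxylase, spanned 37.0 to 45.0 CPM (median 41.9) in sh-Il22ra1 and 21.3 to 25.0 CPM (median 22.8) in sh-ctrl. Every sh-Il22ra1 library was above every sh-ctrl library, 1.79-fold by the fit (log2 fold change 0.84, SE 0.0716, adjusted p = 2.18e-08). Idi1, the isopentenyl diphosphate isomerase, was a low gene that spanned 7.80 to 11.3 CPM (median 8.93) in sh-Il22ra1 and 4.73 to 7.08 CPM (median 6.34) in sh-ctrl. It too rose without overlap (0.57, SE 0.120, adjusted p = 0.000634). Of the 50-base words of its transcript 21.3% also occur in predicted genes, which leaves its counts uncertain. Reads from Hmgcs1 and its antisense gene Gm48342, which overlaps 12.1% of its exon bases, cannot be told apart without strand.

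Fdps, which makes farnesyl diphosphate, the branch point to sterols and prenylated proteins, averaged 154 CPM ± 11.1 in sh-Il22ra1 and 195 CPM ± 25.7 in sh-ctrl (SD, n = 6 each). It was lower without overlap (log2 fold change -0.34, SE 0.0787, adjusted p = 0.00147), but 86.4% of such words of its transcript also occur in other annotated genes, Gm43738 among them, so its counts are uncertain. Acat2, the cytosolic acetoacetyl-CoA thiolase, gave 0.16 (SE 0.0654) at an adjusted p of 0.0506, just outside the threshold, and passed in 7 of 21 alternatives (adjusted p from 0.0211 to 0.590). Its neighbour copy Acat3 shares 45.9% of such words with it. Pmvk, phosphomevalonate kinase, gave 0.10 (SE 0.101) over 59.6 to 77.2 CPM in sh-Il22ra1 and a wide 51.9 to 88.5 CPM in sh-ctrl. Without sh-ctrl replicates 1 and 4 it passed upward (0.20, edgeR adjusted p = 0.0211), the only 1 of 21 alternatives in which it did (adjusted p up to 0.781 in the others). In this stretch of the pathway the enzymes before and after Mvd and Idi1 moved the other way or did not pass.

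Among the 11 enzymes from squalene to cholesterol, 3 were higher, 2 were lower and 6 did not pass. That is 27.3% higher and 18.2% lower, against 25.4% and 26.5% of all tested genes. Msmo1 stood out among them. Msmo1, the methylsterol monooxygenase that oxidises the methyl groups removed from lanosterol-derived sterols, lies on chromosome 8 from 64718139 to 64733792 (minus strand, GRCm38). It spanned 17.0 to 25.8 CPM (median 21.5) in sh-Il22ra1, against 57.2 to 68.4 CPM (median 63.0) in sh-ctrl. The highest sh-Il22ra1 library was thus far below the lowest sh-ctrl library. Its level was 2.91-fold lower (log2 fold change -1.54, SE 0.0845, adjusted p = 7.05e-11), a size greater than that of 99.0% of tested genes. Msmo1 shares no exon bases and no 50-base words with another annotated gene. Of the enzymes that complete the same demethylation, Nsdhl, the decarboxylating dehydrogenase, averaged 17.4 CPM ± 0.844 in sh-Il22ra1 and 17.5 CPM ± 3.26 in sh-ctrl (SD, n = 6 each), and its change of -0.01 (SE 0.104) did not pass. Hsd17b7, the ketoreductase of that complex, spanned 9.04 to 11.1 CPM in sh-Il22ra1 and 7.01 to 8.75 CPM in sh-ctrl and was higher without overlap (0.36, SE 0.0949, adjusted p = 0.00411).

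Dhcr7, which catalyses the closing step from 7-dehydrocholesterol to cholesterol, was the other sterol enzyme that fell, and lies on chromosome 7 from 143823145 to 143848410 (plus strand). It spanned 34.98 to 38.7 CPM (median 37.7) in sh-Il22ra1 and 41.6 to 68.6 CPM (median 60.9) in sh-ctrl. The lowest sh-ctrl values were 41.6 CPM in replicate 4 and 51.4 CPM in replicate 1, still above all sh-Il22ra1 libraries. Its level was 1.57-fold lower (log2 fold change -0.65, SE 0.0967, adjusted p = 2.09e-05), and without those replicates the change was -0.80. Ebp, the sterol isomerase, and Tm7sf2, a sterol reductase, were slightly higher, at 0.20 (SE 0.0695) and 0.21 (SE 0.0744), with overlapping groups, and Tm7sf2 shares 12.1% of its exon bases with Vps51. Both calls ended with a correction for transcript length and GC content (edgeR adjusted p = 0.208 and 0.0627) and without sh-Il22ra1 replicate 6 (adjusted p = 0.0637 and 0.0583), while the Tm7sf2 call also ended without sh-ctrl replicate 5 or 6 or sh-Il22ra1 replicate 4 or 5 (adjusted p up to 0.0622). Over all alternatives the adjusted p of Ebp ranged from 0.000491 to 0.208 and that of Tm7sf2 from 0.00799 to 0.0627. Without sh-Il22ra1 replicate 6, 3 rather than 5 of the 18 enzymes were higher.

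The remaining sterol enzymes did not pass. Sqle, squalene epoxidase and a rate-controlling enzyme, averaged 140 CPM ± 8.41 in sh-Il22ra1 and 143 CPM ± 4.23 in sh-ctrl (SD, n = 6 each), a change of -0.03 (SE 0.0535). Fdft1, squalene synthase, gave -0.02 (SE 0.0563), Lss, lanosterol synthase, 0.07 (SE 0.0794), and Sc5d, a sterol desaturase, -0.02 (SE 0.0790). Fdft1 shares 18.3% of its exon bases with the antisense gene Ctsb and 10.9% of its 50-base words with Gm6781, which leaves its counts uncertain. Cyp51, the lanosterol demethylase, gave -0.15 (SE 0.0613) at an adjusted p of 0.0508, just outside the threshold, and passed in 11 of 21 alternatives (adjusted p from 0.00620 to 0.132). After the length and GC correction Sqle (-0.12, adjusted p = 0.0319), Lss (0.14, adjusted p = 0.0446) and Cyp51 (-0.16, adjusted p = 0.0117) passed the edgeR test, where the adjusted p of Sqle reached 0.992 and that of Lss 0.889 in others.

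**Figure D2:**
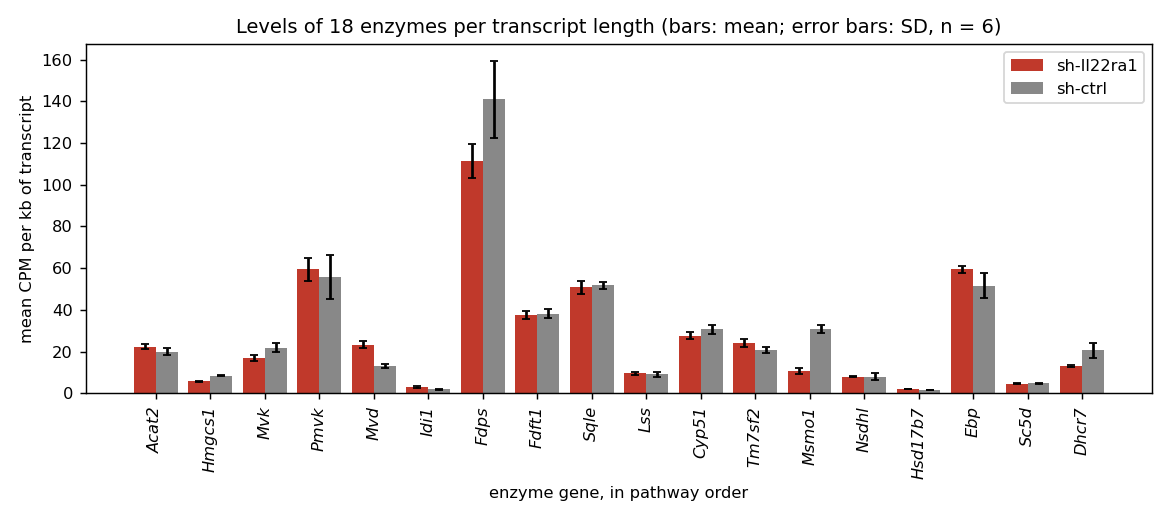
Mean level of the 18 enzymes in CPM per kb of transcript, with SD (n = 6 a group), in pathway order from left to right. Fdps is the most abundant at 111 in sh-Il22ra1 and 141 in sh-ctrl, and Msmo1 stands at 10.6 in sh-Il22ra1 and 30.8 in sh-ctrl.

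On a scale of level per transcript length, Msmo1 took a lower place among the enzymes in sh-Il22ra1. In CPM per kb it stood at 10.6 in sh-Il22ra1, between Lss (9.56) and Dhcr7 (13.3), against 30.8 in sh-ctrl, between Cyp51 (30.6) and Fdft1 (38.1). Mvd moved the other way on this scale, to 23.4 in sh-Il22ra1 against 13.1 in sh-ctrl. Fdps was the most abundant enzyme transcript in both groups and Hsd17b7 the least abundant (2.14 in sh-Il22ra1 and 1.67 in sh-ctrl), with Idi1 next (3.03 and 2.04). Length here is that of a single annotated transcript per gene. Summed over the 18 enzymes, the level was 1016 to 1081 CPM in sh-Il22ra1 and 1073 to 1219 CPM in sh-ctrl, and the groups overlapped slightly.

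Msmo1 and Sc5d both receive electrons from cytochrome b5, whose reductase is encoded by Cyb5r3. Cyb5r3 itself averaged 82.1 CPM ± 5.41 in sh-Il22ra1 and 578 CPM ± 43.1 in sh-ctrl (SD, n = 6 each), a log2 fold change of -2.82 (SE 0.0665, adjusted p = 8.58e-16). Cyb5a, a cytochrome b5, rose to 24.8 CPM ± 1.06 in sh-Il22ra1, against 15.8 CPM ± 1.41 in sh-ctrl (0.65, SE 0.0755, adjusted p = 1.09e-06). Neither gene's groups overlapped. The other electron donors and partners were Cyb5b (-0.06), Cyb5r1 (-0.03) and Por (0.14, adjusted p = 0.0646), which did not pass, and Pgrmc1 (0.20, adjusted p = 0.0264), a heme protein that binds CYP51. Por passed in 5 of 21 alternatives, among them without sh-ctrl replicates 1 and 4 (0.18, edgeR adjusted p = 0.0041), without sh-ctrl replicate 4 alone (adjusted p = 0.00365) and with the length and GC correction (adjusted p = 0.00168), with an adjusted p of up to 0.152 in the others. The call for Pgrmc1 ended with the length and GC correction (0.06, edgeR adjusted p = 0.289) and without sh-ctrl replicate 2 or 6 or sh-Il22ra1 replicate 1, 2 or 6 (adjusted p from 0.0529 to 0.0643), within a range over all alternatives of 0.000548 to 0.289. Of the 2 sterol enzymes fed by cytochrome b5, Msmo1 fell and Sc5d stood at 22.6 CPM ± 1.82 in sh-Il22ra1 and 23.0 CPM ± 1.92 in sh-ctrl (SD, n = 6 each).

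Of the 9 sensors and transcription factors, 3 were higher (Insig1, Insig2 and Nr1h3), 3 were lower (Srebf1, Srebf2 and Scap) and 3 did not pass (Mbtps1, Mbtps2 and Nr1h2), shares near those of all tested genes. The call for Scap did not hold in every alternative. Srebf2, which encodes SREBP2, the main driver of cholesterol synthesis genes, spanned 110 to 134 CPM (median 126) in sh-Il22ra1 and 139 to 216 CPM (median 198) in sh-ctrl. The sh-ctrl libraries formed a low pair, replicates 4 and 1 at 139 and 143 CPM, and 4 libraries from 189.7 CPM upward, and all of them lay above sh-Il22ra1. The fitted level was 1.49-fold lower (log2 fold change -0.57, SE 0.102, adjusted p = 0.000137). It was -0.75 without sh-ctrl replicates 1 and 4 and -0.38 after the length and GC correction.

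Srebf1, whose products drive fatty acid and, in part, cholesterol genes, averaged 149 CPM ± 8.22 in sh-Il22ra1 and 181 CPM ± 15.1 in sh-ctrl (SD, n = 6 each). It was lower without overlap (log2 fold change -0.29, SE 0.0622, adjusted p = 0.000805), and -0.13 after the length and GC correction. Scap, the escort, was lower by the test (-0.19, SE 0.0696, adjusted p = 0.0279) with overlapping groups. Its call ended without any of sh-ctrl replicates 2, 3 and 5 or sh-Il22ra1 replicates 1, 3 and 5 (edgeR adjusted p from 0.0557 to 0.0741) and with the length and GC correction (-0.03, adjusted p = 0.641), and it was lowest without sh-ctrl replicates 1 and 4 (-0.30, adjusted p = 2.86e-05). The proteases that cut SREBPs, Mbtps1 (0.05, SE 0.0731) and Mbtps2 (0.06, SE 0.0868), did not pass, and Mbtps2 shares 28.4% of its exon bases with Yy2. Scap shares 13.2% of its exon bases with the antisense gene 5830462I19Rik.

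Insig1, itself a known target of SREBPs, spanned 68.3 to 74.7 CPM (median 70.7) in sh-Il22ra1, against 43.4 to 50.9 CPM (median 46.3) in sh-ctrl. Both groups were tight and well apart, and the level was 1.52-fold higher (log2 fold change 0.61, SE 0.0577, adjusted p = 9.51e-08). Insig2 averaged 48.0 CPM ± 3.95 in sh-Il22ra1 and 40.0 CPM ± 2.18 in sh-ctrl (SD, n = 6 each) and was higher without overlap (0.26, SE 0.0673, adjusted p = 0.00323), or 0.17 after the length and GC correction. Nr1h3, the gene of liver X receptor alpha (chromosome 2, 91184061 to 91202834, minus strand), was low in both groups, at 3.15 to 5.75 CPM (median 4.13) in sh-Il22ra1 and 1.30 to 2.59 CPM (median 1.77) in sh-ctrl. The groups did not overlap, and it was 2.24-fold higher (1.16, SE 0.196, adjusted p = 7.74e-05). Nr1h2, the gene of liver X receptor beta, was far more abundant, at 33.5 CPM per kb in sh-Il22ra1 and 36.0 in sh-ctrl against 2.20 and 0.985 for Nr1h3. Its change of -0.10 (SE 0.0643) did not pass.

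**Figure D3:**
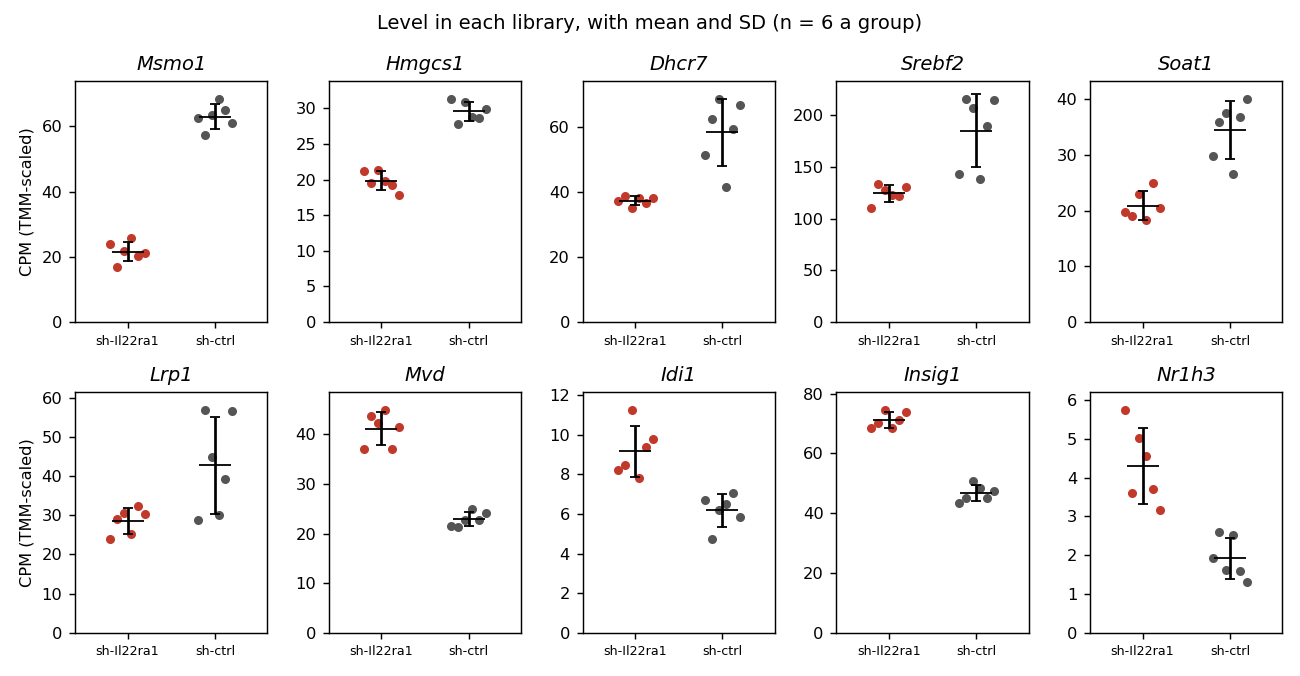
CPM in each library of the 10 genes that changed by more than 0.5 on the log2 scale, with mean and SD (n = 6 a group); the axes start at 0. In sh-ctrl, the Srebf2 points fall into a low pair (139 and 143 CPM) and a higher set. The Lrp1 points are spread from 28.7 to 56.9 CPM, with 28.7 and 29.9 CPM the lowest.

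Of the 8 carrier and storage genes, 2 were higher, 2 were lower and 4 were not past the threshold. These shares, 25% each way, were near the 25.4% and 26.5% of all tested genes. Soat1, which esterifies cholesterol for storage in droplets (chromosome 1, 156424525 to 156474331, minus strand), spanned 18.3 to 25.0 CPM (median 20.1) in sh-Il22ra1 and 26.5 to 40.0 CPM (median 36.3) in sh-ctrl. No libraries overlapped, and the level was 1.65-fold lower (log2 fold change -0.72, SE 0.103, adjusted p = 1.24e-05). The lowest sh-ctrl values were in replicates 4 and 1. The change was -0.86 without them and -0.56 after the length and GC correction. Lrp1, a large endocytic receptor for lipoprotein remnants (chromosome 10, 127538161 to 127621148, minus strand), spanned 23.9 to 32.2 CPM (median 29.7) in sh-Il22ra1 and 28.7 to 56.9 CPM (median 42.0) in sh-ctrl. Here sh-ctrl replicates 1 and 4, at 28.7 and 29.9 CPM, lay within the range of sh-Il22ra1. The fit gave -0.58 (SE 0.149, adjusted p = 0.00298), -0.81 without those replicates and -0.23 after the length and GC correction, with an adjusted p of at most 0.0126 over all alternatives. Lrp1 has the longest transcript of the 35 genes, 14888 bases.

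Abcg1, a sterol exporter found on insulin granules of beta cells, averaged 107 CPM ± 6.11 in sh-Il22ra1 and 88.4 CPM ± 7.05 in sh-ctrl (SD, n = 6 each). It was higher without overlap (log2 fold change 0.27, SE 0.0625, adjusted p = 0.00123). Abca1, the exporter that loads apolipoprotein A-I and, like Abcg1, a known target of liver X receptors, averaged 22.0 CPM ± 2.11 in sh-Il22ra1 and 22.7 CPM ± 4.81 in sh-ctrl, a change of -0.05 (SE 0.122) that did not pass. Npc2, the lysosomal carrier that hands cholesterol to NPC1, was the most abundant of the carriers at 357 CPM ± 18.9 in sh-Il22ra1 and 311 CPM ± 31.8 in sh-ctrl (SD, n = 6 each). Its small rise (0.20, SE 0.0669, adjusted p = 0.0179) was not past the threshold without sh-Il22ra1 replicate 6 (edgeR adjusted p = 0.0519, from 0.000455 in the others), which left 1 of the 8 genes higher. Npc1 (-0.13, SE 0.107), the late endosomal carrier gene Stard3 (0.08, SE 0.0674) and the cytosolic carrier gene Stard4 (-0.19, SE 0.132) were not past the threshold. When sh-ctrl replicates 1 and 4 were left out, Npc1 (-0.29, adjusted p = 0.000905) and Stard4 (-0.34, adjusted p = 0.0189) passed the edgeR test downward, so that 4 of the 8 were lower. Calls also rose over all genes in that fit, with 4146 of 13255 tested genes lower, against 3472 of 13102 with all libraries. Npc1 also passed without sh-ctrl replicate 4 alone (-0.21, edgeR adjusted p = 0.0497). Over the other alternatives the adjusted p reached 0.675 for Npc1 and 0.408 for Stard4.

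A further 41 genes covered cholesterol uptake, synthesis, turnover and oxysterol metabolism. Of the 38 tested, 11 were higher, 13 were lower and 14 were not past the threshold, at a median log2 fold change of -0.02. These are 28.9% higher and 34.2% lower, against 25.4% and 26.5% of all tested genes. Without sh-Il22ra1 replicate 3, or without replicate 6, 7 were higher. Lipa, the lysosomal acid lipase that frees cholesterol from its esters, was lower at 6.48 CPM ± 1.28 in sh-Il22ra1 and 14.0 CPM ± 0.806 in sh-ctrl (SD, n = 6 each; log2 fold change -1.11, SE 0.116, adjusted p = 3.03e-07). Scarb1, the receptor for high-density lipoprotein, averaged 62.4 CPM ± 3.74 in sh-Il22ra1 and 97.6 CPM ± 2.27 in sh-ctrl (SD, n = 6 each; -0.65, SE 0.0546, adjusted p = 2.08e-08). Osbpl2, an oxysterol-binding protein family member, averaged 34.4 CPM ± 2.66 in sh-Il22ra1 and 55.5 CPM ± 3.00 in sh-ctrl (SD, n = 6 each; -0.69, SE 0.0657, adjusted p = 9.19e-08). Lipa, Scarb1 and Osbpl2 all fell without overlap. Rxrb, which encodes a dimer partner of the liver X receptors, averaged 144 CPM ± 11.4 in sh-Il22ra1 and 97.9 CPM ± 8.10 in sh-ctrl (SD, n = 6 each) and rose (0.56, SE 0.0670, adjusted p = 1.61e-06). Cyp27a1, a sterol hydroxylase, was low, at 1.37 CPM ± 0.314 in sh-Il22ra1 and 0.802 CPM ± 0.249 in sh-ctrl (0.76, SE 0.246, adjusted p = 0.0148), and its call ended without sh-ctrl replicates 1 and 4 (edgeR adjusted p = 0.0521, from 0.00762 in the others).

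**Figure D4:**
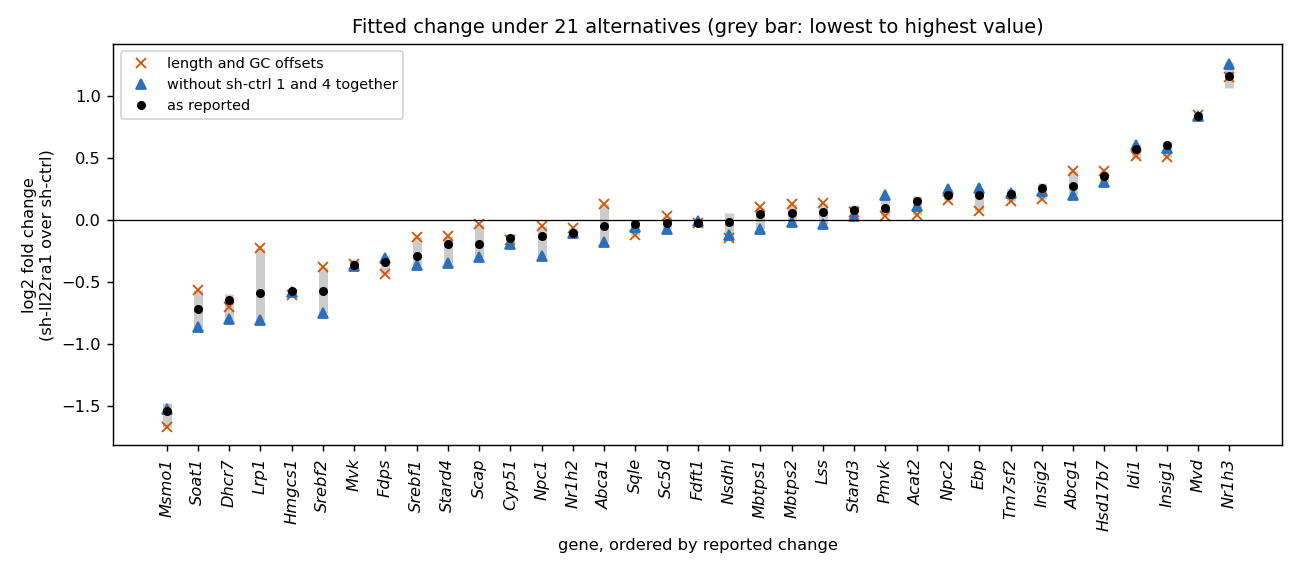
Log2 fold change (sh-Il22ra1 over sh-ctrl) of each of the 35 genes as reported (black), with the lowest and highest of 21 alternatives (grey bar), the length and GC correction (cross) and the fit without sh-ctrl replicates 1 and 4 (triangle). Msmo1, Hmgcs1, Mvd, Idi1, Insig1 and Nr1h3 keep narrow bars away from 0, while Lrp1 ranges from -0.81 to -0.23.

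Across the 21 alternatives, 16 of the 20 called genes kept their call in every alternative, and no called gene changed direction. Msmo1 ranged from -1.67 to -1.48, Mvd from 0.82 to 0.87, Hmgcs1 from -0.61 to -0.56 and Insig1 from 0.51 to 0.63. The 4 that lost it in some alternative were Tm7sf2, Ebp, Scap and Npc2.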

How the data were processed

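Total RNA was extracted with TRIzol and sequenced as paired-end NovaSeq libraries, per the labels' protocols. The submitters' processing notes list HISAT2 2.0.5 and HTSeq with the mm10 build, while strand setting and annotation are not stated there. Each deposited file holds whole-number read counts per gene for 1 library, by its values. Its rows of unassigned reads, 23.5% to 26.8% of sh-Il22ra1 and 26.5% to 31.7% of sh-ctrl files, entered neither library sizes nor tests. A deposited CPM table of the series was not used.

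Counts were tested in R 4.3.3 with edgeR 4.0.16 (filterByExpr with a minimum count of 10 and total of 15, TMM scaling, two-sided quasi-likelihood test of sh-Il22ra1 over sh-ctrl, Benjamini-Hochberg adjustment over the 13102 tested genes of 19024 with a read). The test was checked on simulated counts in which a small share of genes changed, equally up and down. That check does not cover scaling or false calls where as many genes change as were called here. The SE is the log2 fold change divided by the square root of F. The 35 genes, the lists, the alternatives and the naming rule (called genes over 0.5 in size in full, the rest by value or count) were chosen with earlier results of these data known. Values of some genes of the further list are not reported here. GENCODE M21 (GRCm38) gave positions, lengths and GC content for 23376 symbols directly and 659 by synonym. The length and GC correction fits a spline for each library. The alternatives changed the tool (limma-voom with limma 3.58.1, DESeq2 1.42.0), the scaling (upper quartile, RLE), the filter (none, or 1 CPM on average), added the length and GC correction or the replicate number as a block, or left out libraries. No 2 libraries of a group agreed within sampling noise (chi-square per degree of freedom at least 3.82).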

Additional observations from a re-analysis of the deposited data

Results flagged for a closer look

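Across 70 groups of 6 libraries (35 genes in 2 groups), 3 held a library far from the others, where chance alone gives about 1 in 20 groups. Stard3 stood at 42.4 CPM in sh-Il22ra1 replicate 1, with the next library at 50.3 CPM and the highest at 54.6 CPM. Abca1 stood at 17.8 CPM in sh-Il22ra1 replicate 6, against 22.1 to 23.5 CPM in the other sh-Il22ra1 libraries. Nr1h2 stood at 65.0 CPM in sh-ctrl replicate 2, against 71.8 to 74.0 CPM in the other sh-ctrl libraries. None of the 3 genes passed the test between groups.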

How the results depend on the processing

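No label says that replicate numbers pair the libraries. Deviations from the group means correlated by -0.03 to 0.23 between same-numbered libraries, and only numbers 1 and 4 correlated best with their own. With so few libraries these values cannot exclude pairing. With the number as a block, 3463 tested genes were higher and 3566 lower (11 and 11 of the 35), against 3323 and 3472 without it. Acat2 (0.16, edgeR adjusted p = 0.0464) and Cyp51 (-0.15, edgeR adjusted p = 0.0363) were the only ones of the 35 whose call changed. Leaving out 1 library gave 2881 to 3521 tested genes higher and 3239 to 3970 lower, 7 to 11 and 9 to 12 of the 35, 3 to 6 enzymes higher (3 without sh-Il22ra1 replicate 6), 1 to 2 carriers higher (1 without sh-Il22ra1 replicate 6) and 7 to 10 further pathway genes higher (7 without sh-Il22ra1 replicate 3 or 6). Carriers lower were 4 without sh-ctrl replicates 1 and 4, against 2, while tested genes lower were 4146 of 13255, against 3472 of 13102. The cause of these shifts was not tested. Some genes that did not pass turned direction. Without sh-ctrl replicates 1 and 4 the log2 fold change was -0.028 for Lss, -0.068 for Mbtps1, -0.013 for Mbtps2 and 0.14 for Cyb5r1. Nsdhl was 0.00099 with the block and 0.0019 with limma-voom, and the length and GC correction gave 0.034 for Sc5d and 0.13 for Abca1. Leaving out 1 library spanned -0.043 to 0.0024 for Fdft1, -0.069 to 0.060 for Nsdhl, -0.0745 to 0.011 for Sc5d, -0.0023 to 0.089 for Mbtps1, -0.16 to 0.033 for Abca1 and -0.096 to 0.033 for Cyb5r1. Over all alternatives the median of all tested genes stayed within -0.0176 and 0.0028. Low genes such as Nr1h3 rest on few reads per library, and 6 libraries a group limit small changes.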
